A study of Rhodotorula toruloides with 9 samples.

Results

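NCS2 (RTO4_10764), UBA4 (RTO4_11341) and NCS6 (RTO4_12817) are tRNA thiolation genes of the red basidiomycete yeast R. toruloides IFO0880. They were taken from the study's own list of genes by function, which was drawn up from mutant fitness profiling and transcript levels, and were found in the expression tables by their protein number. They are 3 of 8578 gene models, all of them were listed above 0 in all 9 libraries, and none was lost to a filter. Fitness was not analysed here, so the values below are transcript levels only. Because the study's list also used transcript levels, these genes are not independent of these libraries.

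Thiolation puts a sulfur atom on the wobble uridine, the first anticodon base, of the tRNAs that read lysine, glutamate and glutamine codons. In Saccharomyces cerevisiae, Uba4 activates the small ubiquitin-like protein Urm1 and loads it with sulfur, and Urm1 hands the sulfur to tRNA held by the Ncs2-Ncs6 pair, of which Ncs6 carries the catalytic site. In that yeast the modification is known to follow the supply of sulfur amino acids and to help the decoding of the matching codons. URM1 was not analysed here.

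Cultures of the IFO0880 strain were grown in yeast nitrogen base with d-galacturonic acid (d-galUA), glycerol or d-glucose (d-glc) as the carbon source, and selected mRNA was sequenced. The labels give log phase for the harvest and the study's methods give the onset of stationary phase. The study describes 3 biological replicates per carbon source. Per its methods, these cultures were inoculated from the same starter culture, so the spread tested here is that among such cultures. The tables held 3 libraries labelled d-galUA, 2 labelled glycerol and 4 labelled d-glc, with 25.8 to 51.9 M mapped reads each (M, mega; median, 35.2). The library labelled d-glc 4 stood apart from its label. The study's mean levels for glycerol were matched by glycerol 1, glycerol 2 and the library labelled d-glc 4, with a median difference of 5.96e-05% over 1999 genes, and the next of the 84 possible sets of 3 libraries differed by 9.83%. Across genes, the library labelled d-glc 4 correlated at 0.987 to 0.988 with the libraries labelled glycerol and at 0.876 to 0.878 with those labelled d-glc. It was therefore counted in the glycerol group (n = 3 libraries in each group), and the tests of the thiolation genes and the counts over lists are also given without it and with the groups as labelled. Levels of other genes are given for this grouping alone. Its depth was the lowest of the 9 libraries, 25.8 M reads.

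Levels are in FPKM, read density per length of gene and per mapped read. NCS6 was the most abundant of the set, at a mean of 44.2 FPKM on d-galUA, 38.8 FPKM on glycerol and 55.6 FPKM on d-glc, and 73.3%, 69.5% and 78.3% of gene models had a lower mean on these carbon sources. NCS2 and UBA4 lay near or below the middle of the transcriptome, between the 28.0% of models below UBA4 on glycerol and the 50.2% below NCS2 on d-galUA. On d-galUA and on glycerol the order was NCS6, NCS2 and UBA4, and no neighbours in that order overlapped. On d-glc UBA4 (15.3 to 20.8 FPKM) and NCS2 (15.6 to 17.4 FPKM) overlapped each other, far below NCS6 (52.2 to 61.8 FPKM). RNA came from whole cultures, so less transcript per cell and fewer cells that carry it cannot be told apart. Since FPKM is relative to all mapped reads, it does not show a change in total mRNA per cell.

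All 3 genes had their lowest mean on glycerol. UBA4 and NCS6 had their highest mean on d-glc, and NCS2 had its highest mean on d-galUA. The differences were modest. The ratio of the highest to the lowest mean was 1.98 for UBA4, 1.82 for NCS2 and 1.43 for NCS6, against a median of 1.64 over the 7235 genes with a mean of at least 5 FPKM, of which 33.9% reached 2-fold. UBA4 and NCS2 thus varied more than 65.5% and 59.6% of these genes, and NCS6 more than 34.1%.

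**Figure D1:**
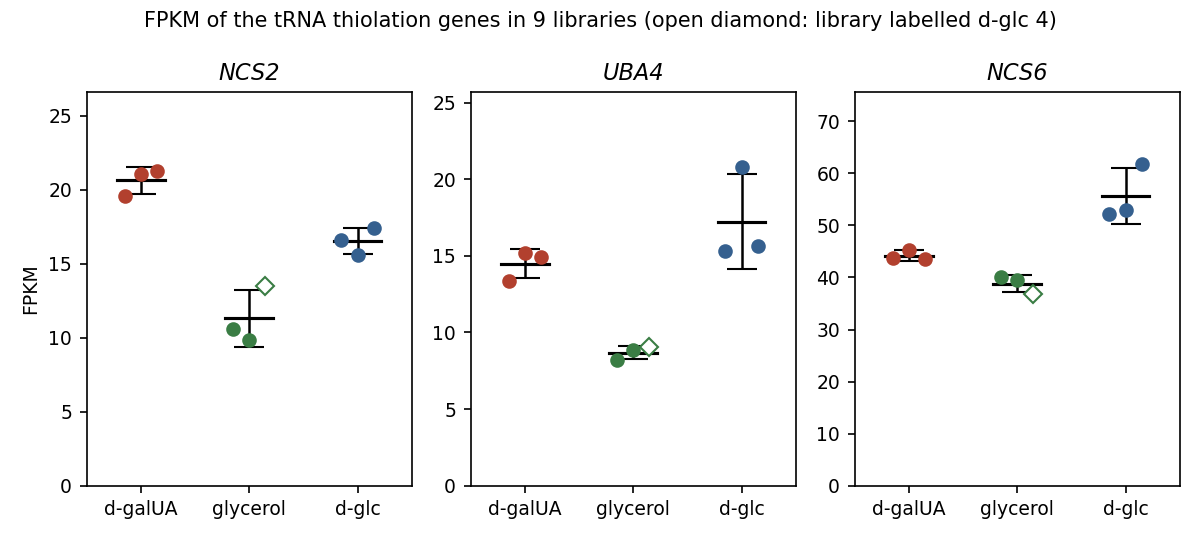
FPKM (vertical axis, from 0) of NCS2, UBA4 and NCS6 in each library on d-galUA, glycerol and d-glc. Points are libraries, the open diamond is the library labelled d-glc 4, and bars are the mean ± SD of 3 libraries. The glycerol points are the lowest for every gene, and NCS2 alone has its highest points on d-galUA.

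UBA4, the Urm1-activating enzyme, was measured at 13.4, 15.2 and 14.9 FPKM on d-galUA. The glycerol group gave 8.18 and 8.83 FPKM in glycerol 1 and 2 and 9.06 FPKM in the library labelled d-glc 4. The d-glc libraries 1 to 3 gave 15.3, 20.8 and 15.6 FPKM. The glycerol libraries were below every other library, and d-glc 2 stood above all the rest. UBA4 averaged 14.5 ± 0.974 FPKM on d-galUA, 8.69 ± 0.455 FPKM on glycerol and 17.2 ± 3.07 FPKM on d-glc (SD, n = 3 each). On d-galUA it exceeded the glycerol level by 0.68 on the log2(FPKM + 1) scale (SE 0.13; adjusted p by limma, 0.00175) and on glycerol it was below the d-glc level, with a log2 difference of -0.90 (SE 0.13; adjusted p, 0.000230). Between d-galUA and d-glc the log2 difference was -0.22 (SE 0.13) and did not pass (adjusted p, 0.185). The highest d-galUA library lay just under the lowest d-glc library in FPKM, and in TPM, the same estimate scaled to one total per library, the ranges overlapped (19.1 to 21.6 TPM on d-galUA, 20.2 to 30.4 TPM on d-glc). Without d-glc 2, the difference between glycerol and d-glc was -0.77 and still passed (adjusted p by limma, 0.000319), and that between d-galUA and d-glc was -0.09.

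NCS6, the catalytic partner of the thiolase pair, was measured at 43.7, 45.4 and 43.6 FPKM on d-galUA. The glycerol group gave 40.1 and 39.4 FPKM in glycerol 1 and 2 and 36.9 FPKM in the library labelled d-glc 4. The d-glc libraries gave 52.2, 52.9 and 61.8 FPKM. The 3 groups did not overlap, and their order was glycerol, d-galUA, d-glc from low to high. The means were 44.2 ± 1.01 FPKM on d-galUA, 38.8 ± 1.68 FPKM on glycerol and 55.6 ± 5.36 FPKM on d-glc (SD, n = 3 each). NCS6 was lower on d-galUA than on d-glc (log2 difference -0.32, SE 0.09; adjusted p by limma, 0.0148) and lower on glycerol than on d-glc (-0.50, SE 0.09; adjusted p, 0.00102). Between d-galUA and glycerol the log2 difference was 0.18, with a 95% interval of -0.02 to 0.39 (adjusted p by limma, 0.126). The call between d-galUA and d-glc was lost without d-galUA 1 (adjusted p by limma, 0.0537) and without d-galUA 3 (0.0555), with little change in size (-0.31 in both).

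NCS2, the other member of the pair, had a different order. It was measured at 19.6, 21.1 and 21.3 FPKM on d-galUA. The glycerol group gave 10.6 and 9.88 FPKM in glycerol 1 and 2 and 13.5 FPKM in the library labelled d-glc 4, and the d-glc libraries gave 16.6, 15.6 and 17.4 FPKM. Each d-galUA library was above each d-glc library, and each of those above each library of the glycerol group. The library labelled d-glc 4 lay between the other glycerol libraries and the lowest d-glc library. NCS2 averaged 20.6 ± 0.923 FPKM on d-galUA, 11.3 ± 1.92 FPKM on glycerol and 16.5 ± 0.893 FPKM on d-glc (SD, n = 3 each). On d-galUA it exceeded its glycerol level (log2 difference 0.82, SE 0.12; adjusted p by limma, 0.000343), and on glycerol it was below its d-glc level (-0.52, SE 0.12; adjusted p, 0.00515). The log2 difference between d-galUA and d-glc was 0.30 (SE 0.12) and did not pass (adjusted p by limma, 0.0646). Without the library labelled d-glc 4 it did pass, at the same size (adjusted p by limma, 0.0315). The ratio of the d-galUA mean to the glycerol mean was 1.82 with that library and 2.02 without it.

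**Figure D2:**
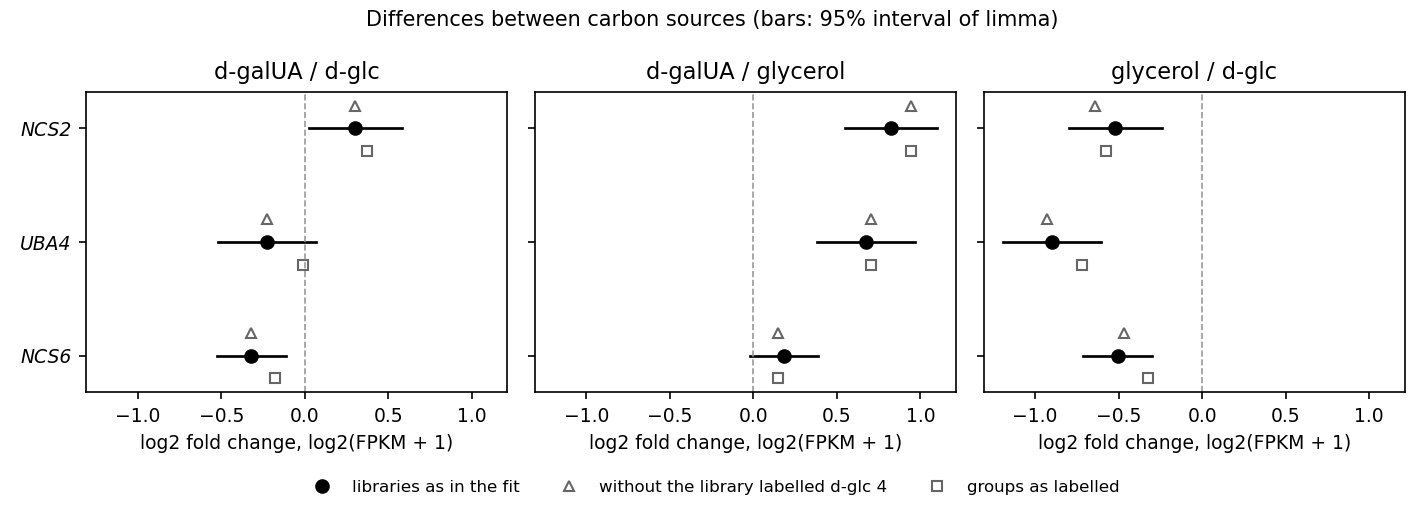
Difference between carbon sources on the log2(FPKM + 1) scale (horizontal axis) for each gene, with the 95% interval of limma over 9 libraries. Triangles leave out the library labelled d-glc 4 and squares use the groups as labelled. Every value of the glycerol and d-glc comparison lies left of 0, from -0.50 for NCS6 to -0.90 for UBA4 in the filled points.

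Counted over these genes, 3 of 3 differed between carbon sources by the F test of limma, as did 69.5% of the 8479 genes tested. Their adjusted p values were 0.000585 for NCS2, 0.000385 for UBA4 and 0.00214 for NCS6. None of the 3 reached a 2-fold difference between means, a criterion that, with the F test and a mean of at least 5 FPKM, 28.5% of all genes met. Between d-galUA and d-glc, 0 of 3 were called higher (24.9% of all genes) and 1 of 3 lower (25.8%). An unadjusted p under 0.05 by limma was found for 2 of 3 (56.5% of all genes). Between d-galUA and glycerol, 2 of 3 were called higher (25.2% of all genes) and 0 lower (24.1%). Between glycerol and d-glc, 0 of 3 were called higher (26.7% of all genes) and 3 of 3 lower (26.7%). The last 2 comparisons share the glycerol libraries. The median log2 difference of the 3 genes was -0.22, 0.68 and -0.52 in these comparisons, in that order, against medians over all genes within 0.03 of 0.

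With the groups as labelled, the spread within the d-glc label grew. NCS6 averaged 50.9 ± 10.3 FPKM and UBA4 15.2 ± 4.80 FPKM over the 4 libraries labelled d-glc, and their ranges overlapped with those on d-galUA. Only NCS2 then passed the F test (adjusted p by limma, 0.00881), and only its difference between d-galUA and glycerol was called (0.95; adjusted p, 0.00485). Over all genes, 20.3% passed the F test with these groups and 18.4% were called between d-galUA and glycerol. No gene of the set was called between glycerol and d-glc by limma, and 1 of 8479 genes was called in the whole table. At an unadjusted p under 0.05 by limma were 2 of 3 (26.5% of all genes). Leaving the library labelled d-glc 4 out kept all 3 genes lower on glycerol than on d-glc (NCS2 -0.64, UBA4 -0.93, NCS6 -0.47 on the log2 scale) and NCS2 and UBA4 higher on d-galUA than on glycerol. Without that library, 47.2% and 43.6% of all genes were called in these comparisons, in either direction. The direction of the difference was the same in every gene and comparison under all 3 groupings. Between d-galUA and d-glc, leaving that library out cannot change the size, since neither fitted group holds it. As labelled, the difference of UBA4 between d-galUA and d-glc was close to none (-0.01, adjusted p by limma 0.979).

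Ratios of a pair of genes within a library do not depend on how libraries are scaled, and they describe each gene relative to another. NCS2 was 0.448, 0.464 and 0.488 times NCS6, its partner, on d-galUA. It was 0.264 and 0.250 times NCS6 in glycerol 1 and 2, 0.366 times in the library labelled d-glc 4, and 0.318, 0.295 and 0.282 times on d-glc. The d-galUA libraries thus lay above all others, and the glycerol and d-glc groups overlapped through the library labelled d-glc 4. UBA4 relative to NCS6 was instead lowest on glycerol, with a geometric mean of 0.224, against 0.328 on d-galUA and 0.308 on d-glc. NCS2 relative to UBA4 was lowest on d-glc, with a geometric mean of 1.42 on d-galUA, 1.29 on glycerol and 0.968 on d-glc. Of these 3 pairs, 2 had an exact permutation p under 0.05 (F over libraries, two-sided; 0.0286 for NCS2 and UBA4, 0.0321 for NCS2 and NCS6), and 0 passed after adjustment over the 6 pairs planned (adjusted p, 0.0536 for both, and 0.0686 for UBA4 and NCS6; smallest p that the arrangements of 9 libraries allow, 0.00357). Without the library labelled d-glc 4, both pairs with NCS2 passed (adjusted exact permutation p, 0.0357 with UBA4 and 0.0214 with NCS6). Without d-glc 2, in which UBA4 was high, UBA4 with NCS6 passed (adjusted exact permutation p, 0.0357). With the groups as labelled, NCS2 with NCS6 passed (adjusted exact permutation p, 0.00476).

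**Figure D3:**
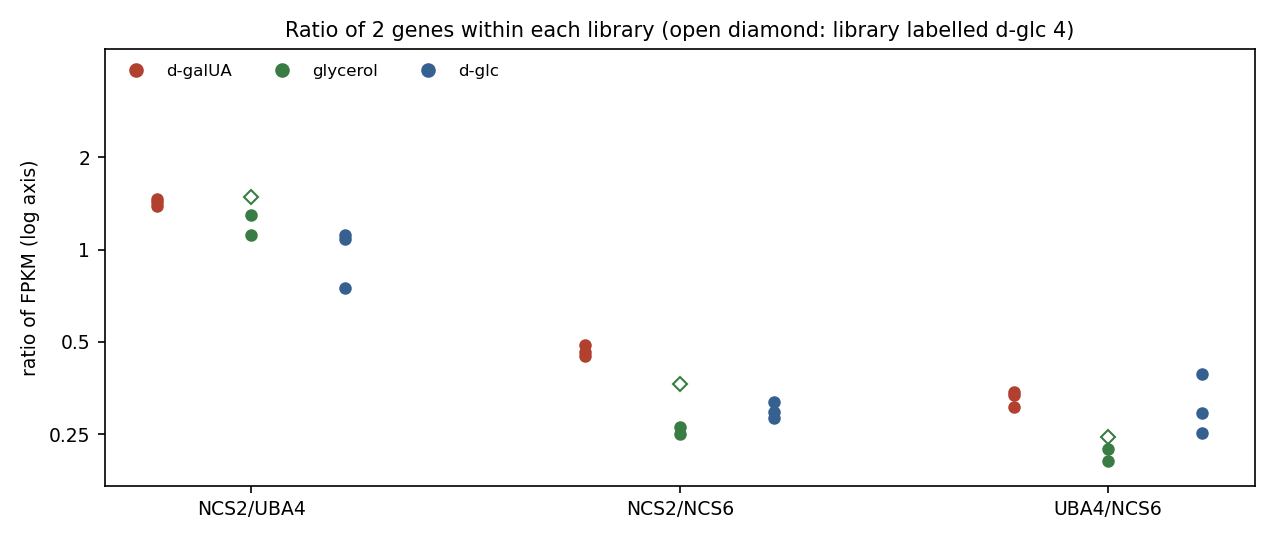
Ratio of FPKM of 2 genes within each library (vertical log axis) for the 3 pairs, by carbon source. Points are libraries and the open diamond is the library labelled d-glc 4. The ratio of NCS2 to NCS6 is highest on d-galUA, and the ratio of UBA4 to NCS6 is lowest on glycerol.

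Across the 9 libraries, UBA4 varied with NCS6 (Pearson correlation of log2(FPKM + 1), 0.783) and with NCS2 (0.737), and NCS2 correlated with NCS6 at 0.435. The points share libraries and their depth and fall into 3 carbon sources, so these values are a description. Gene names were at hand only among the 1999 genes highest on d-galUA and in the lists counted here. The closest named genes were thus selected on that level and need not be the closest in the genome. Among 1243 genes with a known name and a mean of at least 5 FPKM, the pattern of NCS2 was most like that of RTO4_9983, an Hsp70 family chaperone (r = 0.974), AHA1, a co-chaperone that stimulates Hsp90 (0.964), and TVP38, a Golgi membrane protein (0.961). UBA4 was followed most closely by KGD1, a subunit of 2-oxoglutarate dehydrogenase (0.968), PDH1, a mitochondrial enzyme of propionate breakdown (0.966) and MDL1/MDL2, mitochondrial ABC transporters (0.964). For NCS6 the closest were CCT3, a subunit of the cytosolic chaperonin (0.981), MGE1, the nucleotide exchange factor of mitochondrial Hsp70 (0.978), and NIP7, a factor in ribosome assembly (0.975). Of 6974 genes compared, 17 had r of at least 0.95 with NCS2, 71 with UBA4 and 72 with NCS6.

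The processes around thiolation were followed in 25 genes, chosen by their S. cerevisiae names from a copy of the study's table that holds the 1999 genes highest on d-galUA, so they were selected on that level. In this selection, d-galUA set against d-glc gave 3 higher and 13 lower genes (median log2 difference, -0.33), by limma with adjustment over all genes, of which 24.9% were higher and 25.8% lower. Setting d-galUA against glycerol gave 8 higher and 3 lower (0.11; all genes, 25.2% and 24.1%), and glycerol against d-glc gave 2 higher and 14 lower (-0.47; all genes, 26.7% and 26.7%). Without the library labelled d-glc 4 the counts were 3 and 12, 8 and 2, and 2 and 14, where 49.7%, 43.6% and 47.2% of all genes were called in either direction. With the groups as labelled they were 2 and 2, 4 and 1, and 0 and 0, where 22.3%, 18.4% and 0.0118% of all genes were called. At an unadjusted p under 0.05 by limma, 9, 9 and 11 of the 25 genes differed in these comparisons as labelled. Over all genes, 36.9%, 34.0% and 26.5% did.

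Upstream of UBA4, sulfur comes from cysteine through the desulfurase NFS1, an essential mitochondrial enzyme, and the sulfurtransferase TUM1. NFS1 averaged 66.2 ± 4.80 FPKM on d-galUA, 61.3 ± 2.80 FPKM on glycerol and 93.4 ± 11.1 FPKM on d-glc, and was lower than on d-glc on both other carbon sources (-0.49 and -0.59 on the log2 scale; adjusted p by limma, 0.00334 and 0.000871). TUM1, at 113 FPKM on d-galUA, 127 FPKM on glycerol and 143 FPKM on d-glc, was lower on d-galUA than on d-glc (-0.33; adjusted p by limma, 0.0142), and its log2 difference of -0.17 between glycerol and d-glc did not pass. AHP1, a peroxiredoxin that Urm1 is attached to in S. cerevisiae, went the other way, with 647 ± 20.9 FPKM on d-galUA, 341 ± 32.8 FPKM on glycerol and 202 ± 64.3 FPKM on d-glc, and passed in all 3 comparisons (d-galUA over d-glc, 1.73; adjusted p by limma, 7.5e-05). UBA1, which activates ubiquitin, had its highest level on d-galUA, above d-glc (0.33) and glycerol (0.47), by tests that passed. UBA3, which acts on the ubiquitin-like Rub1, was lower than on d-glc on both other carbon sources (-0.40 and -0.47). The calls of these 5 genes all held without the library labelled d-glc 4. As labelled, AHP1 was called between d-galUA and d-glc (1.52; adjusted p by limma, 0.00820) and UBA1 between d-galUA and glycerol (0.52; adjusted p, 0.0356), and NFS1, TUM1 and UBA3 in no comparison.

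Downstream, the thiolated tRNAs are charged by the lysyl-, glutamyl- and glutaminyl-tRNA synthetases KRS1, GUS1 and GLN4. All 3 were lower on glycerol than on d-glc (-0.60, -0.58 and -0.42 on the log2 scale; adjusted p by limma, 0.000256, 0.000966 and 0.0137), as were 26.7% of all genes. KRS1 and GUS1 were also lower on d-galUA than on d-glc (-0.56 and -0.52), and none of the 3 passed between d-galUA and glycerol. Those counts were the same without the library labelled d-glc 4. Without it, 49.7% (d-galUA against d-glc), 43.6% (d-galUA against glycerol) and 47.2% (glycerol against d-glc) of all genes were called in either direction. With the groups as labelled, 0 of 3 were called in any comparison by limma, where 22.3%, 18.4% and 0.0118% of all genes were called, in the same order. Between glycerol and d-glc, 3 of 3 had an unadjusted p under 0.05 by limma (26.5% of all genes). KRS1 averaged 160 ± 11.6 FPKM on d-galUA, 155 ± 3.88 FPKM on glycerol and 236 ± 17.2 FPKM on d-glc. Of the other tRNA modification genes, TRM5, a guanosine methyltransferase that acts next to the anticodon, had 53.9 ± 0.706 FPKM on d-galUA, 28.0 ± 2.19 FPKM on glycerol and 80.1 ± 12.8 FPKM on d-glc, the same order as UBA4 and NCS6. DUS4, a dihydrouridine synthase, had 57.8 ± 2.35 FPKM on d-galUA, 9.92 ± 1.10 FPKM on glycerol and 20.5 ± 1.23 FPKM on d-glc, the same order as NCS2. TRM8, the catalytic subunit of a guanosine methyltransferase, passed in none of the comparisons (61.3 FPKM on d-galUA, 58.8 FPKM on glycerol, 67.4 FPKM on d-glc). As labelled, DUS4 was called higher on d-galUA in both comparisons (1.67 over d-glc, 2.49 over glycerol; adjusted p by limma, 0.00175 and 0.000702) and TRM5 in none.

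Of 14 genes of sulfate assimilation and methionine metabolism, d-galUA set against d-glc gave 0 higher and 7 lower (all genes by limma, 24.9% and 25.8%), d-galUA against glycerol 4 higher and 3 lower (25.2% and 24.1%), and glycerol against d-glc 1 higher and 7 lower (26.7% and 26.7%). Without the library labelled d-glc 4 the counts were 0 and 6, 4 and 2, and 1 and 7. With the groups as labelled they were 0 and 2, 2 and 1, and 0 and 0 by limma, with 4, 5 and 5 genes at an unadjusted p under 0.05. Over all genes, 36.9%, 34.0% and 26.5% had such an unadjusted p as labelled. In either direction, 49.7%, 43.6% and 47.2% of all genes were called without that library, and 22.3%, 18.4% and 0.0118% as labelled. Of the genes named next, only HOM3 (lower on d-galUA in both comparisons) and MET14 (d-galUA over glycerol) were called as labelled. SAM1/SAM2, S-adenosylmethionine synthetase, averaged 737 ± 24.3 FPKM on d-galUA, 449 ± 30.8 FPKM on glycerol and 1248 ± 193 FPKM on d-glc. MET16, the reductase of activated sulfate, averaged 59.8 ± 4.37 FPKM on d-galUA, 52.7 ± 7.22 FPKM on glycerol and 127 ± 27.1 FPKM on d-glc. MET14, the kinase before it, had 513 FPKM on d-galUA, 215 FPKM on glycerol and 405 FPKM on d-glc, and only its differences from glycerol passed (d-galUA over glycerol, 1.25; glycerol over d-glc, -0.87). HOM3, aspartate kinase, was lowest on d-galUA (50.9 FPKM, against 116 FPKM on glycerol and 106 FPKM on d-glc). MET6, methionine synthase, had 2072 FPKM on d-galUA, 3140 FPKM on glycerol and 2363 FPKM on d-glc, and was lower on d-galUA than on glycerol (-0.59; adjusted p by limma, 0.0130). The list as a whole therefore had no single order of carbon sources.

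**Figure D4:**
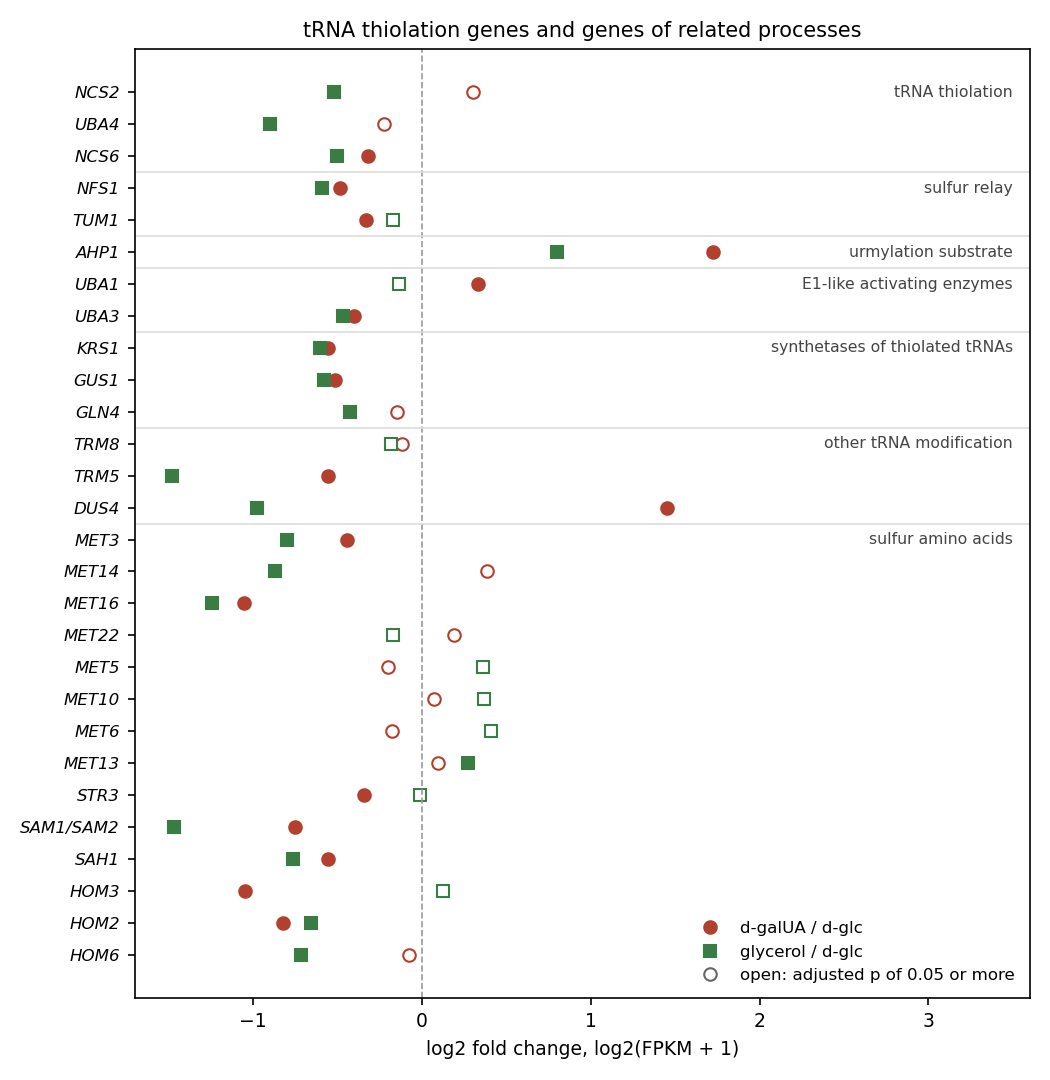
Log2(FPKM + 1) differences (horizontal axis) of d-galUA over d-glc (circles) and glycerol over d-glc (squares) for the thiolation genes and 25 genes of related processes. Open symbols have an adjusted p by limma of 0.05 or more. The thiolation genes lie between -0.90 and 0.30, inside the span of the others, which runs from -1.48 (TRM5 on glycerol) to 1.73 (AHP1 on d-galUA).

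The genes lie on 3 scaffolds of the version 4 assembly. NCS2 is on scaffold 14 at 19078 to 21258 (plus strand), UBA4 on scaffold 15 at 688176 to 690178 (minus strand) and NCS6 on scaffold 3 at 210344 to 212336 (plus strand). Their neighbours are close. RTO4_10763 abuts the start of NCS2 on the opposite strand, with 0 bp between the models, and averaged 124.6 FPKM on d-galUA, 13.7 FPKM on glycerol and 18.3 FPKM on d-glc. Its d-galUA level was above that on d-glc by 2.71 and above that on glycerol by 3.10 on the log2 scale. RTO4_10765 lies 1 bp beyond NCS2, also on the opposite strand, with 6.36 FPKM on d-galUA, 4.56 FPKM on glycerol and 1.94 FPKM on d-glc. Both neighbours of NCS2 thus had their highest mean on d-galUA, as NCS2 did. The share of NCS2 reads that come from the opposite strand was not tested, and whether strand was used in counting is not given in the sources used here.

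UBA4 is 4 bp from RTO4_11340, on the opposite strand, which averaged 23.6 FPKM on d-galUA, 13.3 FPKM on glycerol and 21.2 FPKM on d-glc and, like UBA4, was lowest on glycerol. On the other side of UBA4, at 209 bp, RTO4_11342 had 21.2 FPKM on d-galUA, 15.5 FPKM on glycerol and 26.7 FPKM on d-glc. NCS6 stands 90 bp from RTO4_12816 and 107 bp from RTO4_12818, whose orders differed from that of NCS6: RTO4_12816 was highest on d-galUA (99.5 FPKM, against 67.1 FPKM on glycerol and 66.0 FPKM on d-glc) and RTO4_12818 lowest there (13.2 FPKM, against 16.6 FPKM on glycerol, with d-glc above both).

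**Figure D5:**
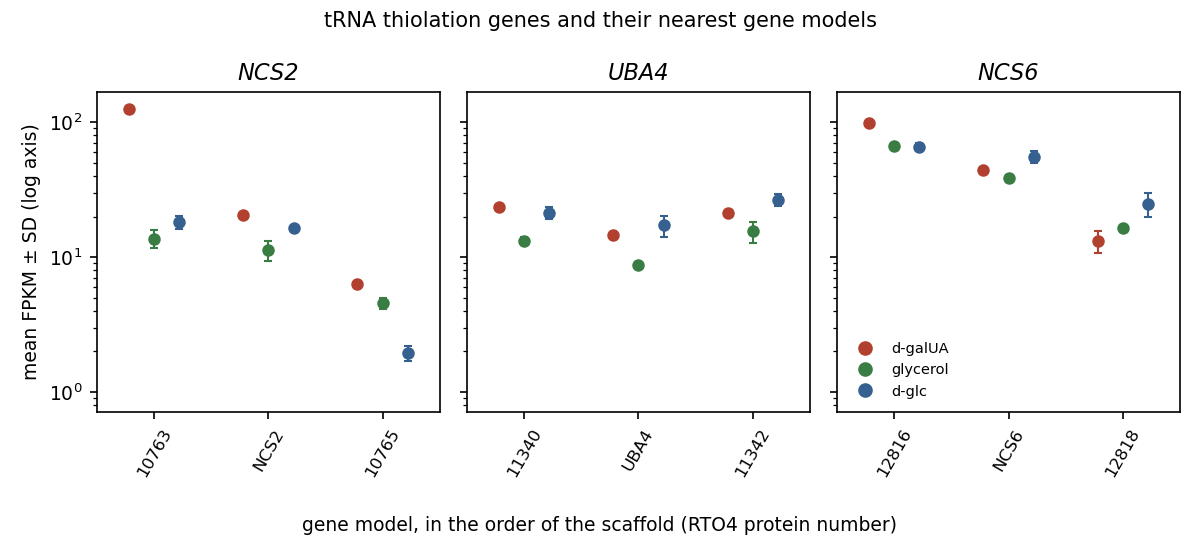
Mean FPKM ± SD (vertical log axis; 3 libraries per carbon source) of each thiolation gene and its nearest gene models in the order of the scaffold. RTO4_10763 next to NCS2 stands at 124.6 FPKM on d-galUA, against 13.7 FPKM on glycerol and 18.3 FPKM on d-glc, and RTO4_11340 next to UBA4 is lowest on glycerol, as UBA4 is.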

How the data were processed

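RNA-seq tables of 9 libraries of R. toruloides IFO0880 were used. Per the labels and the paper's methods, the authors selected mRNA, sequenced 50-bp reads, mapped them with HISAT2 2.1.0 and estimated abundances with StringTie 1.3.3b on version 4 gene models. The deposited FPKM is relative to gene length and mapped reads, the deposited TPM is scaled to 1 total per library, and the deposited coverage is the mean read depth over a gene. Depth was computed from coverage and FPKM. The thiolation genes had at most 469 to 6387 reads per library, with the fewest on UBA4, where counting error is largest.

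Values were tested on log2(FPKM + 1) with limma 3.58.1 (R 4.3.3; trend, all 9 libraries in 1 fit), with Benjamini-Hochberg adjustment over 8479 genes with FPKM above 0 in at least 1 library and a threshold of 0.05. Fold changes on this scale understate those of low genes. Ratios within libraries were tested with exact permutation tests (two-sided). The code was tested on simulated data. Python 3.11.15, numpy 2.4.6, pandas 2.3.3, scipy 1.17.1 and matplotlib 3.10.9 were used. Alternatives covered pseudocounts, a minimum FPKM, TPM, median-of-ratios and quantile scaling, limma without a trend, Ballgown's F test, 2-group fits, groups as labelled, a replicate block and each library left out. The genes named are the 3 thiolation genes, 25 related genes, the neighbouring gene models and the 3 named genes most like each of them. These genes and the lists were chosen with earlier results of these data known. Lists of G protein and glucose regulator genes were counted only for contrast. Fitness data and sequences were not analysed here, and 1 further gene of the study's thiolation list is not reported here (pair ratios were adjusted over the 6 pairs that include it).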

Additional observations from a re-analysis of the deposited data

How the results depend on the processing

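Over 20 alternatives, 165 of 180 single log2 differences of the 3 genes kept their direction and their side of the threshold, 9 were no longer past it, 6 newly passed it and 0 reversed. A minimum FPKM, limma without a trend, 2-group fits and a left-out library outside the comparison leave the size of a difference unchanged. These alternatives could therefore not reverse it. With the groups as labelled, 1 of 3 genes differed across carbon sources (3 as reported), 0 between d-galUA and d-glc (1 as reported), 1 between d-galUA and glycerol (2), 0 between glycerol and d-glc (3), and 1 of 3 pair ratios passed (0). Calls fell over the whole table as well. In the same order of limma tests, 20.3%, 22.3%, 18.4% and 0.0118% of all genes were called as labelled. As reported, these shares were 69.5%, 50.7%, 49.3% and 53.4%. Between d-galUA and d-glc, 2 genes were called with quantile normalization and with only the 2 groups fitted. Leaving out 1 library gave 3 to 3 genes across carbon sources, 0 to 2 between d-galUA and d-glc, 2 to 2 between d-galUA and glycerol, 3 to 3 between glycerol and d-glc, and 0 to 2 pair ratios. The cause of these changes was not tested, except that the labelled grouping moves 1 library.

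Log2 differences over the alternatives ranged for glycerol against d-glc from -0.64 to -0.41 (NCS2), -0.98 to -0.69 (UBA4) and -0.55 to -0.33 (NCS6). With Ballgown's F test, NCS2 lost its call between glycerol and d-glc (adjusted p, 0.0830) and NCS6 that between d-galUA and d-glc (0.0590), while NCS2 was called between d-galUA and d-glc (0.0453) and NCS6 between d-galUA and glycerol (0.0275), so the 1 gene called between d-galUA and d-glc was NCS2 in place of NCS6.

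Libraries with the same number in their labels had weak correlations of their deviations (-0.145 to 0.231), which give no sign that the numbers pair them. So few values cannot exclude pairing. With a replicate block, 3 genes differed across carbon sources, 1 between d-galUA and d-glc, 2 between d-galUA and glycerol and 3 between glycerol and d-glc. Since no other library has the number of the library labelled d-glc 4, its block in effect leaves it out. The glycerol group in that fit therefore rests on glycerol 1 and 2.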

Other observations

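Lists of 5 genes each that the study set beside the thiolation genes were counted in the same fit. Per its title, the study's table of these lists holds genes with fitness defects, with induction over d-glc on d-galUA and glycerol, or with both. Like the thiolation genes, these genes are therefore not independent of these libraries. For the G protein genes, d-galUA against d-glc gave 3 higher and 0 lower, d-galUA against glycerol gave 1 higher and 2 lower, and glycerol against d-glc gave 4 higher and 0 lower (by limma, adjusted over all genes). Over all genes these shares were 24.9% higher and 25.8% lower, 25.2% and 24.1%, and 26.7% and 26.7%. Without the library labelled d-glc 4 these counts were 3 and 0, 0 and 1, and 4 and 0, and as labelled 1 and 0, 0 and 1, and 0 and 0 (3, 1 and 0 genes at an unadjusted p under 0.05). As labelled, 36.9%, 34.0% and 26.5% of all genes had an unadjusted p under 0.05 by limma. In either direction, 49.7%, 43.6% and 47.2% of all genes were called without that library, and 22.3%, 18.4% and 0.0118% as labelled. Of the regulators of glucose metabolism, 1 was higher and 0 lower, 1 higher and 2 lower, and 3 higher and 1 lower in these comparisons. A count of 1 of 5 in a direction is close to the shares over all genes. The count of 3 of 5 higher between glycerol and d-glc is above the 26.7% of all genes. Without that library these were 1 and 0, 1 and 2, and 2 and 1, and as labelled 0 and 0, 1 and 0, and 0 and 0 (0, 3 and 1 at an unadjusted p under 0.05). Between glycerol and d-glc, the G protein genes and the thiolation genes were thus called in opposite directions (4 of 5 higher and 3 of 3 lower), and as labelled no gene of either list was. Whether the lists differ from each other was not tested. How much of the higher counts over d-glc comes from the choice of genes by induction was not tested either.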
